A study of Mus musculus with 10 samples.

Results

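The genes described here encode the constitutive proteasome, its activator caps, its inhibitor and its assembly chaperones. They were chosen by symbol: every gene annotated as Psma, Psmb, Psmc, Psmd, Psme, Psmf or Psmg followed by a digit, without Psmb8, Psmb9 and Psmb10, the interferon-inducible subunits of the immunoproteasome. On the array 44 such genes had a probe set annotated to a single gene, of 17097 genes in all, and each was read from its probe set with the highest mean over the 10 arrays. A gene was tested where at least 2 arrays stood above their own array's median, which 42 of the 44 passed, of 11037 genes tested. All 42 were above the array median on every array, with a lowest log2 level of 5.67 (Psmc3ip) against array medians of 4.61 to 4.81. The 2 dim genes were Psma8, a ring subunit of the testis, and Psmb11, a catalytic subunit of the thymic cortex. Psmc3ip, a partner of meiotic recombinases, and Psme3ip1, a protein that binds PSME3, met the symbol rule but are no proteasome subunits, and they are counted in a class of their own. Psmc6, Psmd10 and Psme4 were not analysed here.

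CD4+ T cells were sorted from DBA/1 spleens, an inbred mouse used in models of arthritis. Injected animals had been given 500000 immature dendritic cells intraperitoneally on 3 occasions, 7, 5 and 3 days before death. CD49b+ cells of injected mice were on 3 arrays, CD25+ cells of injected mice on 3, CD4+ cells of injected mice on 2 and CD4+ cells of naive mice, which received no cells, on 2. The labels give no age and no genetic change, and they do not say whether the sort removed CD49b+ and CD25+ cells from the CD4+ arrays. Each sort pooled several mice. Nothing says that replicates came from separate pools, so the p-values reflect only how far these samples differ, and that spread may be technical. The CD49b+ subset is studied as a regulatory population beside the conventional CD25+ one.

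The proteasome degrades proteins that carry ubiquitin. Its core particle is a stack of alpha and beta rings: the alpha rings gate the entry, and the beta rings hold the protease sites. A regulatory particle docks on the core, with a base of ATPases that unfold substrates and non-ATPase subunits that bind and remove ubiquitin. T cells that have been activated grow and divide, and proteasome activity is needed for both. Interferon gamma induces the immunoproteasome subunits and the PSME1 and PSME2 cap, and the transcription factor NFE2L1 drives the genes of the constitutive particle when proteasome activity falls short.

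NFE2L1 and NFE2L2 bind the antioxidant response element, so promoters of the proteasome genes were searched for its core letters and for 3 other elements. The windows ran from 250 bases before to 50 after the start (RefSeq, build GRCm38.p6) and were read on both strands. Of the 44 genes 36 had at least 1 window, with 40 windows in all, and Psma8, Psmb1, Psmb2, Psmb7, Psmc3, Psmd3, Psmd7 and Psmg2 had none. The core TGACNNNGC was in 4 of 40 windows of these genes (10.0%), against 12.4% of all 32841 windows. The CCAAT box, CCAAT, was in 35.0%, against 37.4% of all windows. The GC box, GGGCGG, was in 52.5%, against 35.7%, and the gamma interferon activation site, TTCNNNGAA, in 5.0% (Psmd2 and Psmg1), against 8.3%. None of these patterns contains another, and a match describes letters in a window, not a bound site. The 4 windows that hold the antioxidant response core are shown because they belong to a core protease subunit (Psmb5), another core protease subunit (Psmb6), a subunit of the regulatory particle (Psmd12) and an assembly chaperone (Psmd9). They lie at chr14:54617946-54618245 on the minus strand for Psmb5, and on the plus strand at chr11:70525107-70525406 for Psmb6, chr11:107479278-107479577 for Psmd12 and chr5:123227940-123228239 for Psmd9. Each is written 5′ to 3′ on the strand of its gene, with the match in capitals, and in Psmd12 the match is on the opposite strand.
Psmb5: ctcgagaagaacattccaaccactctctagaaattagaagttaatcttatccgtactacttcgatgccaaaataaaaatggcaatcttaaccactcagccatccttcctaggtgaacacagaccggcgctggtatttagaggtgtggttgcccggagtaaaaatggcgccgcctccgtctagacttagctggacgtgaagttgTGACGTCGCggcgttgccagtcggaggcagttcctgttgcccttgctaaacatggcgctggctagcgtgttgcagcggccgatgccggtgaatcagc
Psmb6: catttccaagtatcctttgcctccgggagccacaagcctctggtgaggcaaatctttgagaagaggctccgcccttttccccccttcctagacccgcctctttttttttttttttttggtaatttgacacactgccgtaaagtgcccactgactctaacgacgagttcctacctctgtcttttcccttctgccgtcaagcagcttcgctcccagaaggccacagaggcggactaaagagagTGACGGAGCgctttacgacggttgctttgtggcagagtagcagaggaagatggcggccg
Psmd12: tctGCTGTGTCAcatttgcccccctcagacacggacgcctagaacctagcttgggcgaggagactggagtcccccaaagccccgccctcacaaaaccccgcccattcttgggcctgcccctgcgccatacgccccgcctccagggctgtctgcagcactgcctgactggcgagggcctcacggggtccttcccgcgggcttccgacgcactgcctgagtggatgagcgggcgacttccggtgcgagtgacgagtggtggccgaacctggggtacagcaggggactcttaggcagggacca
Psmd9: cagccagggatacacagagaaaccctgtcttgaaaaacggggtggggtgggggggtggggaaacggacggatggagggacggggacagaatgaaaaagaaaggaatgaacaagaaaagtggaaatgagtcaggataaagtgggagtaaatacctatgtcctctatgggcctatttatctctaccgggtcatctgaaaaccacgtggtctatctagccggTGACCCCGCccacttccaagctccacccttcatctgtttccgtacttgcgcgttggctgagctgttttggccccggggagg

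The median log2 level of the 42 genes was 9.53 ± 0.08 on the CD49b+ arrays and 9.23 ± 0.12 on the CD25+ arrays (SD, n = 3 each), against 8.96 ± 0.08 on the CD4+ arrays of injected mice and 9.12 ± 0.08 on those of naive mice (SD, n = 2 each). The 3 CD49b+ arrays were above all others. The lowest CD25+ array, replicate 1 at 9.09, lay below the higher of the naive arrays at 9.17. In every group replicate 1 was low for these genes: 35 to 41 of the 42 lay below their group's mean on it. That share was not counted over all genes tested. Their median deviation on replicate 1 was -0.011 (CD4+ naive), -0.019 (CD4+ injected), -0.034 (CD25+) and 0.023 (CD49b+). That of the 42 genes was -0.041, -0.060, -0.145 and -0.058, in the same order. With 2 arrays a group, a low replicate 1 makes replicate 2 high. The T cell genes Cd3e, Cd3d, Cd3g and Cd4 were above the array median on every array, which marks T cells but not the sorted subsets. Il2ra, which encodes CD25, averaged 6.29 in CD49b+ cells, 8.83 in CD25+ cells and 4.17 in CD4+ cells of injected mice. Itga2, which encodes CD49b, averaged 5.78 in CD49b+ cells and 5.82 in CD4+ cells of injected mice, a difference that was not called (adjusted p = 0.717). The Itga2 transcript thus did not separate CD49b+ from CD4+ arrays.

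Other measures moved with the groups, and their part in the results was not tested. Cycling cell markers (6 of 7 with a probe set) summed to 6383 to 7977 on the linear scale in CD49b+ cells and 5405 to 6718 in CD25+ cells, against 3285 to 3778 in CD4+ cells of injected mice and 3242 to 3510 in those of naive mice. Such sums weigh the brightest genes most: the mean log2 level of the 6 markers was 9.63 in CD49b+ cells, 9.09 in CD25+ cells, 7.21 in CD4+ cells of injected mice and 7.72 in those of naive mice. Against CD4+ cells of injected mice 5 of the 6 rose in CD49b+ cells, with a median difference of 2.77, and 6 of 6 in CD25+ cells, with a median of 2.18. Mki67, a protein of dividing nuclei, was higher in CD49b+ than in CD4+ cells of injected mice by 4.19 ± 0.26 on the log2 scale (SE, adjusted p = 1.68e-06). Myeloid markers summed to 165 to 179, 219 to 243, 259 to 289 and 458 to 571 in the same order of groups, and of the 6 Lyz2 was below the array median on all arrays. B cell markers (4 of 5 with a probe set) summed to 89.4 to 102 in CD49b+ cells, 111 to 124 in CD25+ cells, 83.8 to 88.3 in CD4+ cells of injected mice and 84.6 to 88.5 in those of naive mice, with Ms4a1 and Ighm below the array median throughout. Natural killer cell markers summed to 197 to 252, 150 to 180, 273 to 289 and 313 to 345, in that order, with Ncr1 and Klrb1c below the median on all CD4+ arrays. The Gapdh control was the level of its 3′ end minus that of its 5′ end. Its mean was 0.46 ± 0.23 for CD49b+ arrays and 0.52 ± 0.12 for CD25+ arrays (SD, n = 3 each). CD4+ arrays had means of 0.19 ± 0.09 for injected and 0.02 ± 0.05 for naive mice (SD, n = 2 each). The same control for Actb, which encodes beta-actin, set CD25+ but not CD49b+ arrays apart from CD4+ arrays. Actb means were 0.50 ± 0.06 for CD49b+ arrays and 0.64 ± 0.02 for CD25+ arrays (SD, n = 3 each). For CD4+ arrays they were 0.53 ± 0.04 (injected) and 0.46 ± 0.05 (naive, SD, n = 2 each).

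**Figure D1:**
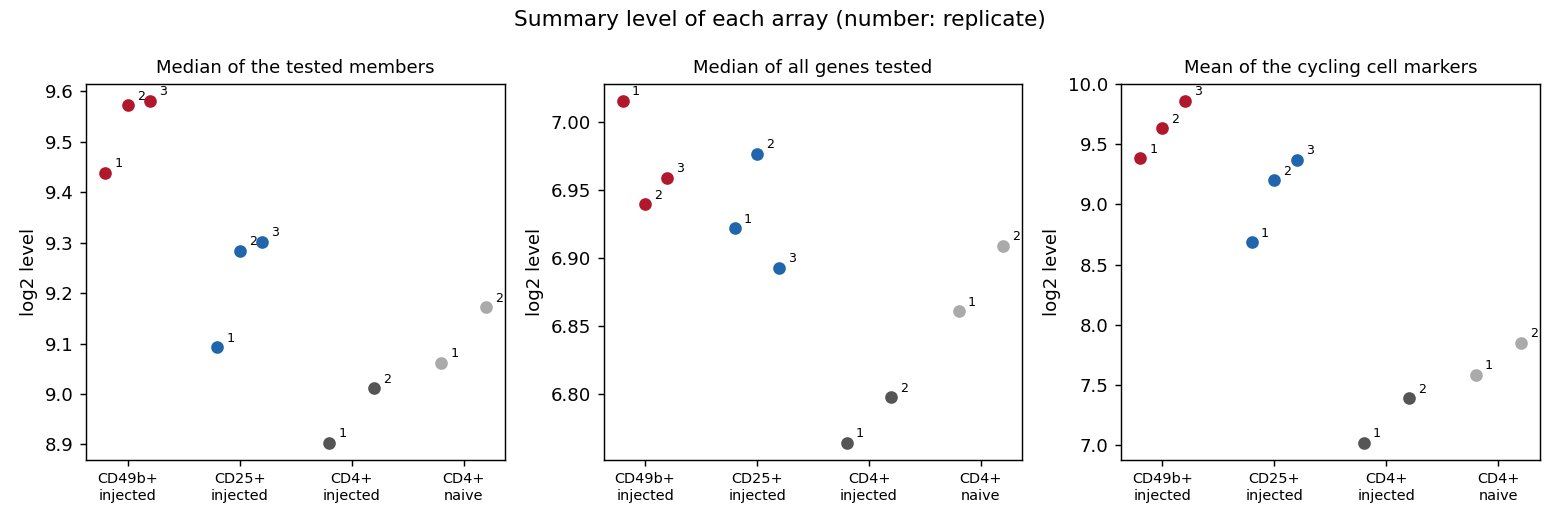
Log2 level on each of the 10 arrays of the median of the 42 proteasome genes (left), the median of all genes tested (middle) and the mean of 6 cycling cell markers (right), with the replicate number beside each point. The 3 CD49b+ arrays are highest in the left panel, and the CD4+ arrays of injected mice are lowest in all 3 panels.

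Proteasome genes were compared first between CD49b+ and CD4+ cells of injected mice. Genes with an adjusted p below 0.05 in limma count as called. In CD49b+ cells 30 of the 42 genes rose and 0 fell, where 29.9% of all genes tested rose and 23.5% fell. Their median log2 difference was 0.47, a 1.39-fold difference, against 0.03 for all genes tested. The differences ran from -0.15 to 0.86, and 14 of the 42 were above 1.5-fold, as were 15.9% of all genes tested. On 33 of the 42 genes the 3 CD49b+ arrays all lay above both CD4+ arrays, which held for 37.3% of all genes tested. Among the 3399 genes with a mean log2 level of at least 8, a background chosen after the values were seen, 38.7% rose with a median of 0.16. In such bulk samples fewer cells of a type and less RNA per cell cannot be told apart. With each array centred on its median, all genes tested shifted to a median of 0.22 and the proteasome genes to 0.66, with 40 of 42 called higher. After quantile normalization the medians were 0.04 and 0.33, with 23 called higher, against 28.9% of all genes tested. Over all genes the calls split into 3300 higher and 2592 lower, and after centring into 4890 and 1358.

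**Figure D2:**
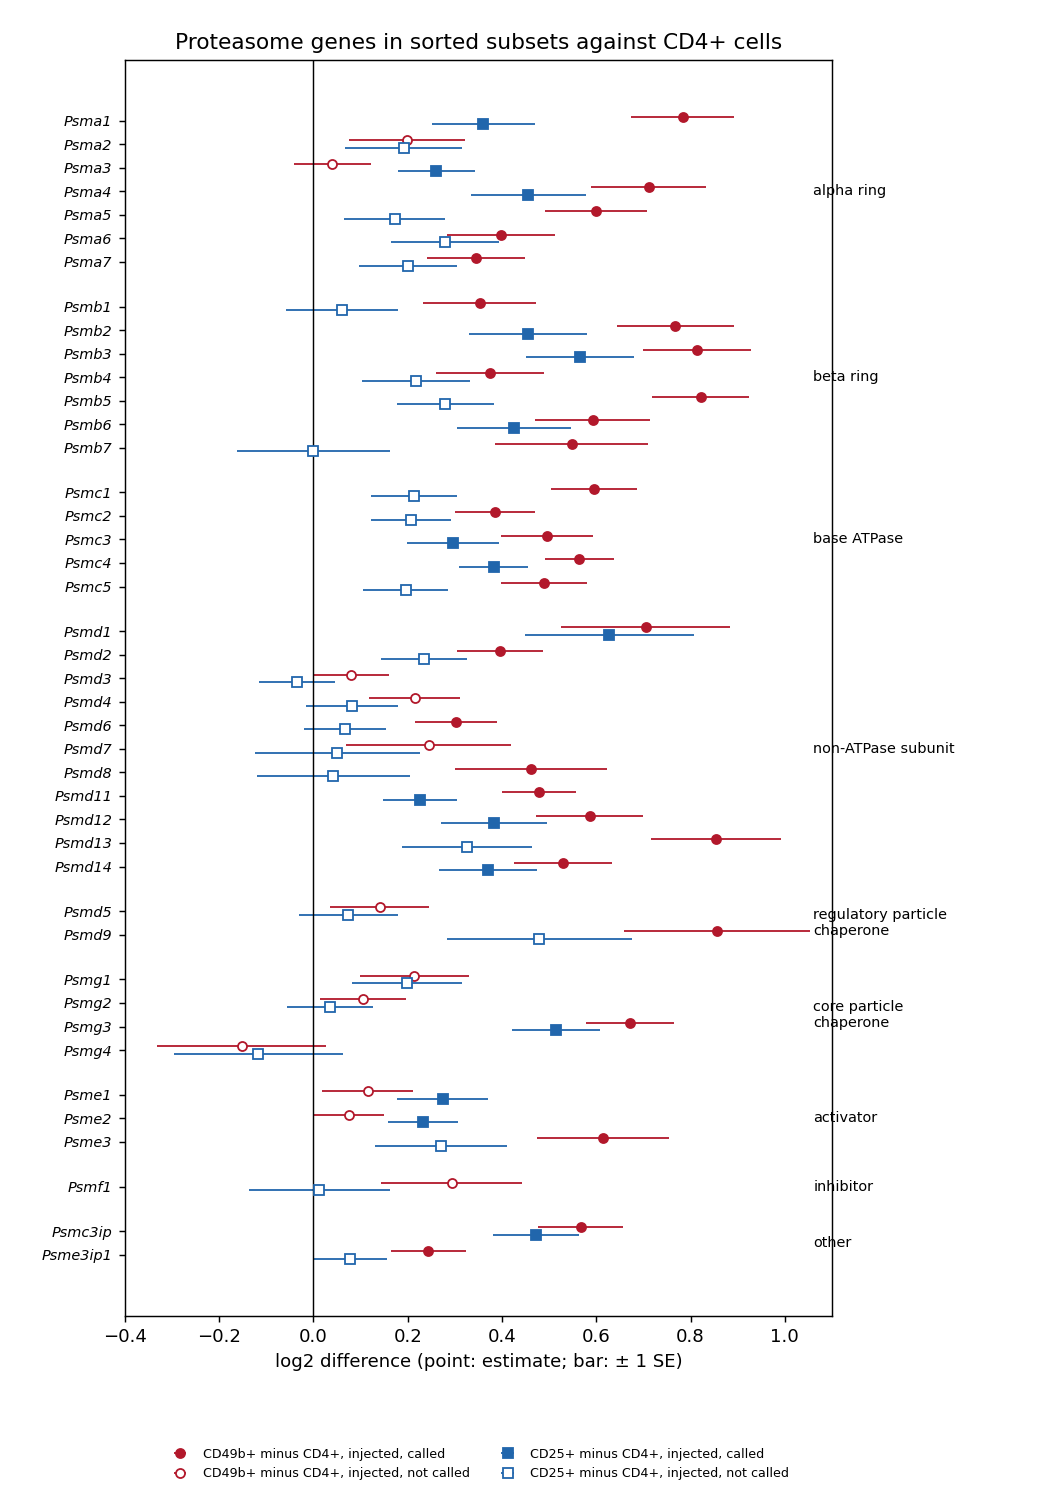
Log2 difference (x axis, with 1 SE) of each of the 42 proteasome genes in CD49b+ (red circles) and CD25+ cells (blue squares) against CD4+ cells of injected mice, by role. Filled symbols were called: 30 of 42 in CD49b+ cells and 16 of 42 in CD25+ cells, all to the right of 0. The 2 comparisons share their CD4+ arrays.

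In the alpha ring 5 of 7 genes rose in CD49b+ cells, with a median difference of 0.40. Psma1 stood at log2 levels of 10.32, 10.40 and 10.40 in CD49b+ cells, against 9.57 and 9.60 in CD4+ cells of injected mice. The groups did not overlap, and the difference was 0.78 ± 0.11 (SE, adjusted p = 0.000295). A dimmer probe set of Psma1 went the other way, at -0.54 ± 0.19 (adjusted p = 0.0373 over all probe sets), and the mean of its probe sets gave -0.10 (adjusted p = 0.52). Psma4 stood at 10.03, 10.35 and 10.33, against 9.50 and 9.55, a difference of 0.71 ± 0.12 (adjusted p = 0.000988). Psma5 rose by 0.60 ± 0.11 (adjusted p = 0.00129), with CD49b+ arrays from 9.37 to 9.58 above CD4+ arrays from 8.84 to 8.97. These subunits form the ring through which substrates enter. Psma6 and Psma7 also rose, while Psma2 and Psma3 were not called.

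In the beta ring 7 of 7 genes tested rose in CD49b+ cells, with a median difference of 0.59. Psmb5 carries the chymotrypsin-like protease site. It stood at 9.78, 9.84 and 9.71 in CD49b+ cells, against 8.86 and 9.05 in CD4+ cells of injected mice. The lowest CD49b+ array was far above the higher CD4+ array, and the difference was 0.82 ± 0.10 (SE, adjusted p = 0.000147). Psmb6 carries the caspase-like site. It stood at 8.86, 9.08 and 8.93, against 8.25 and 8.48, a difference of 0.59 ± 0.12 (adjusted p = 0.00269). Psmb7 carries the trypsin-like site. It stood at 6.54, 6.98 and 6.70, against 6.12 and 6.27, and rose by 0.55 ± 0.16 (adjusted p = 0.0181). Leaving out CD4+ replicate 1 (adjusted p = 0.108) or CD49b+ replicate 2 (0.0531) ended that call. Of the beta subunits without a protease site, Psmb3 stood at 10.88, 10.87 and 10.92, against 9.97 and 10.19, a difference of 0.81 ± 0.11 (adjusted p = 0.000297). Psmb2 rose by 0.77 ± 0.12 (adjusted p = 0.000721), and Psmb1 and Psmb4 rose as well.

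**Figure D3:**
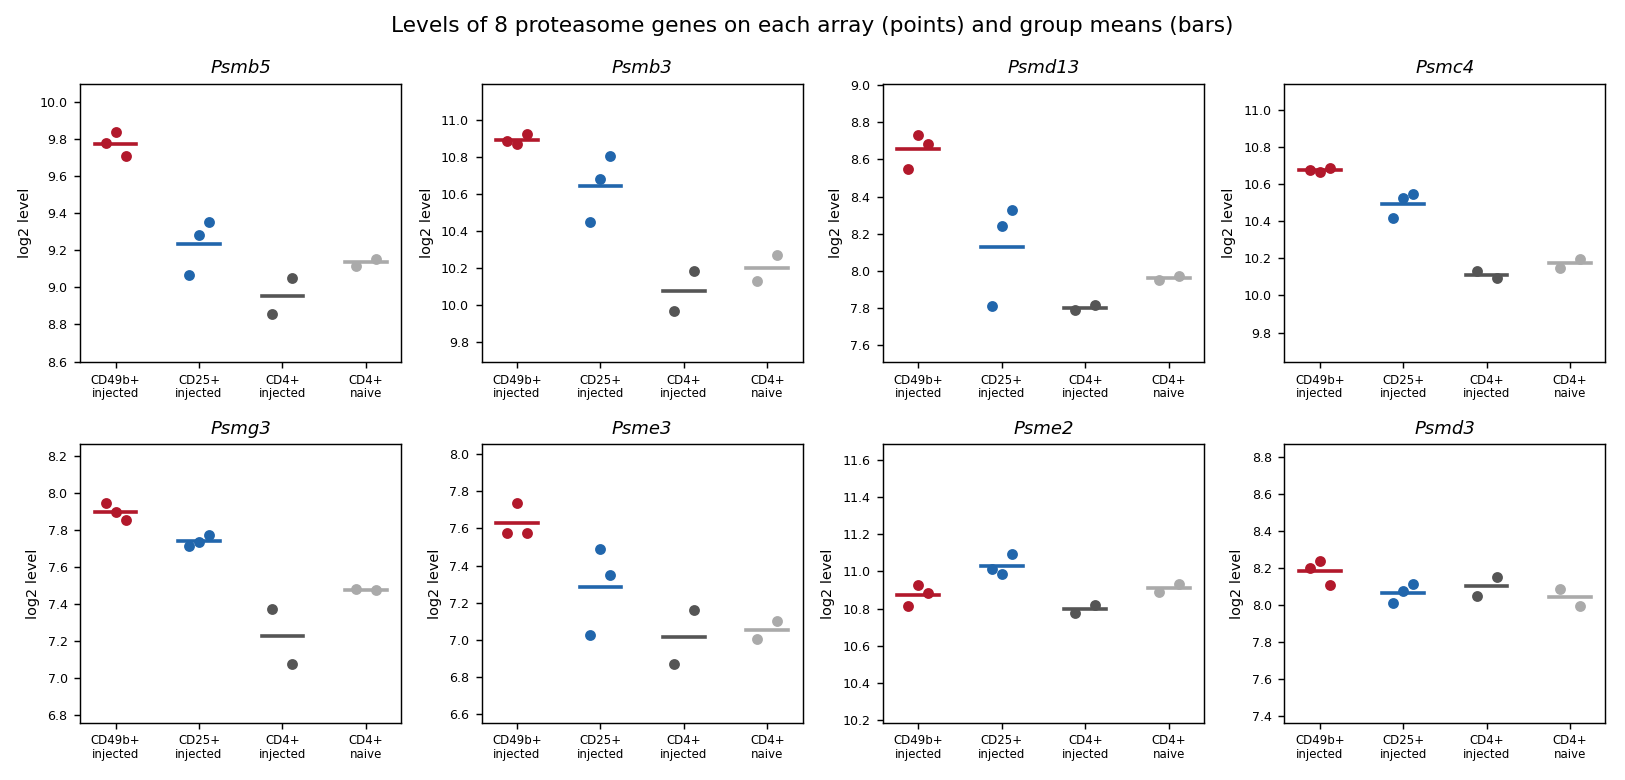
Log2 levels of 8 proteasome genes on each array (points) with group means (bars), on axes of equal span. The CD49b+ arrays lie above both CD4+ groups for Psmb5, Psmb3, Psmd13, Psmc4, Psmg3 and Psme3, while Psme2 is highest in CD25+ cells and Psmd3 was called in neither subset.

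The base ATPases, which unfold substrates and thread them into the core, all rose in CD49b+ cells: 5 of 5, with a median difference of 0.50 and a narrow range of 0.39 to 0.59. Psmc4 stood at 10.67, 10.67 and 10.69 in CD49b+ cells, against 10.13 and 10.09 in CD4+ cells of injected mice. The replicates of each group lay close together, and the difference of 0.56 ± 0.07 (SE) had an adjusted p of 0.000189. Psmc1, whose tail helps to open the gate of the core, stood at 9.02, 9.10 and 9.15, against 8.48 and 8.51. It rose by 0.59 ± 0.09 (adjusted p = 0.000494), a call lost when the probe sets of the gene were averaged (adjusted p = 0.0662). Psmc3 rose by 0.50 ± 0.10 (adjusted p = 0.00214). Psmc2 and Psmc5 rose too.

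Of the non-ATPase subunits 8 of 11 rose in CD49b+ cells, with a median difference of 0.46. Psmd13, a subunit of the lid, stood at 8.55, 8.73 and 8.68 in CD49b+ cells, against 7.79 and 7.82 in CD4+ cells of injected mice. It differed by 0.85 ± 0.14 (SE, adjusted p = 0.000689), a 1.81-fold difference. Psmd1, the scaffold that holds a ubiquitin receptor, stood at 8.92, 9.30 and 9.61, against 8.56 and 8.59. Its CD49b+ arrays were spread widely, and the difference was 0.70 ± 0.18 (adjusted p = 0.00832). Psmd12, a lid subunit, rose by 0.59 ± 0.11 (adjusted p = 0.0019). Psmd14, the enzyme that cuts ubiquitin chains off substrates, stood at 10.25, 10.34 and 10.38, against 9.75 and 9.84, a difference of 0.53 ± 0.10 (adjusted p = 0.00215). Psmd4, a ubiquitin receptor, stood at 10.23, 10.41 and 10.17, against 9.95 and 10.15. Its groups nearly met, and its difference of 0.22 ± 0.10 was not called (adjusted p = 0.0866), though it was after median centring (0.005) and with the replicate block (0.0304). Psmd3 and Psmd7 were not called either.

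Among the assembly chaperones 2 of 6 rose in CD49b+ cells. Psmg3, which helps to build the alpha ring, stood at 7.94, 7.90 and 7.85 in CD49b+ cells, against 7.37 and 7.08 in CD4+ cells of injected mice, a difference of 0.67 ± 0.09 (SE, adjusted p = 0.000278). Its partner Psmg4 did not pass the test, nor did Psmg1 and Psmg2, which act together at an earlier step. Psmd9, a chaperone of the base, stood at 7.10, 7.38 and 6.89, against 6.10 and 6.43. The difference was 0.86 ± 0.20 (adjusted p = 0.00496), but the call was lost without CD4+ replicate 1 (0.0513). Another probe set of Psmd9 was lower in CD49b+ cells, at -1.23 ± 0.24 (adjusted p = 0.00291), and the mean of its probe sets gave -0.19 (adjusted p = 0.2). A dim probe set of the lid subunit Psmd11, whose chosen probe set was higher by 0.48 ± 0.08, was also lower, at -0.31 ± 0.10 (adjusted p = 0.0266). Of the 30 called genes 7 had another probe set tested. In 3 of these 7 (Psmd11, Psma1 and Psmd9) another probe set was called the opposite way. In 4 (Psmc4, Psmb3, Psma7 and Psmd11) another was called the same way. Psmd11 thus counts on both sides, since a brighter probe set than the dim one was higher, at 0.62 ± 0.13 (adjusted p = 0.00371). The other probe set of Psmd6 was called neither way (0.0721).

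The activator caps differed among themselves in CD49b+ cells. Psme3, the nuclear cap, stood at 7.57, 7.74 and 7.58, against 6.87 and 7.16 in CD4+ cells of injected mice. It rose by 0.61 ± 0.14 (SE, adjusted p = 0.00487), a call lost without CD4+ replicate 1 (0.0548). Psme1, which forms the interferon-inducible cap with Psme2, stood at 11.10, 11.14 and 11.10, against 10.86 and 11.13, and its range overlapped that of the CD4+ arrays. Psme2 stood at 10.81, 10.92 and 10.88, against 10.78 and 10.82, also an overlap. The differences of 0.12 ± 0.10 for Psme1 (95% interval -0.10 to 0.33) and 0.08 ± 0.08 for Psme2 (-0.09 to 0.24) were not called (adjusted p = 0.334 and 0.417), but both were called higher after median centring (0.0192 and 0.0116). Psmf1, which inhibits the core in the test tube, stood at 7.42, 7.71 and 7.49, against 7.09 and 7.40. Its difference of 0.29 ± 0.15 was not called (adjusted p = 0.123), though it was after median centring (0.0178) and with the replicate block (0.0391). Another probe set of Psmf1 was called higher, at 0.40 ± 0.11 (adjusted p = 0.0145 over all probe sets), and its dimmer ones were not called. Of the genes that are no subunits, Psmc3ip was higher by 0.57 ± 0.09 (adjusted p = 0.000651) and Psme3ip1 by 0.24 ± 0.08 (0.0256). The call of Psme3ip1 was lost without either CD4+ array (0.0574 and 0.146) and without CD49b+ replicate 2 (0.0558) or 3 (0.0737).

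**Figure D4:**
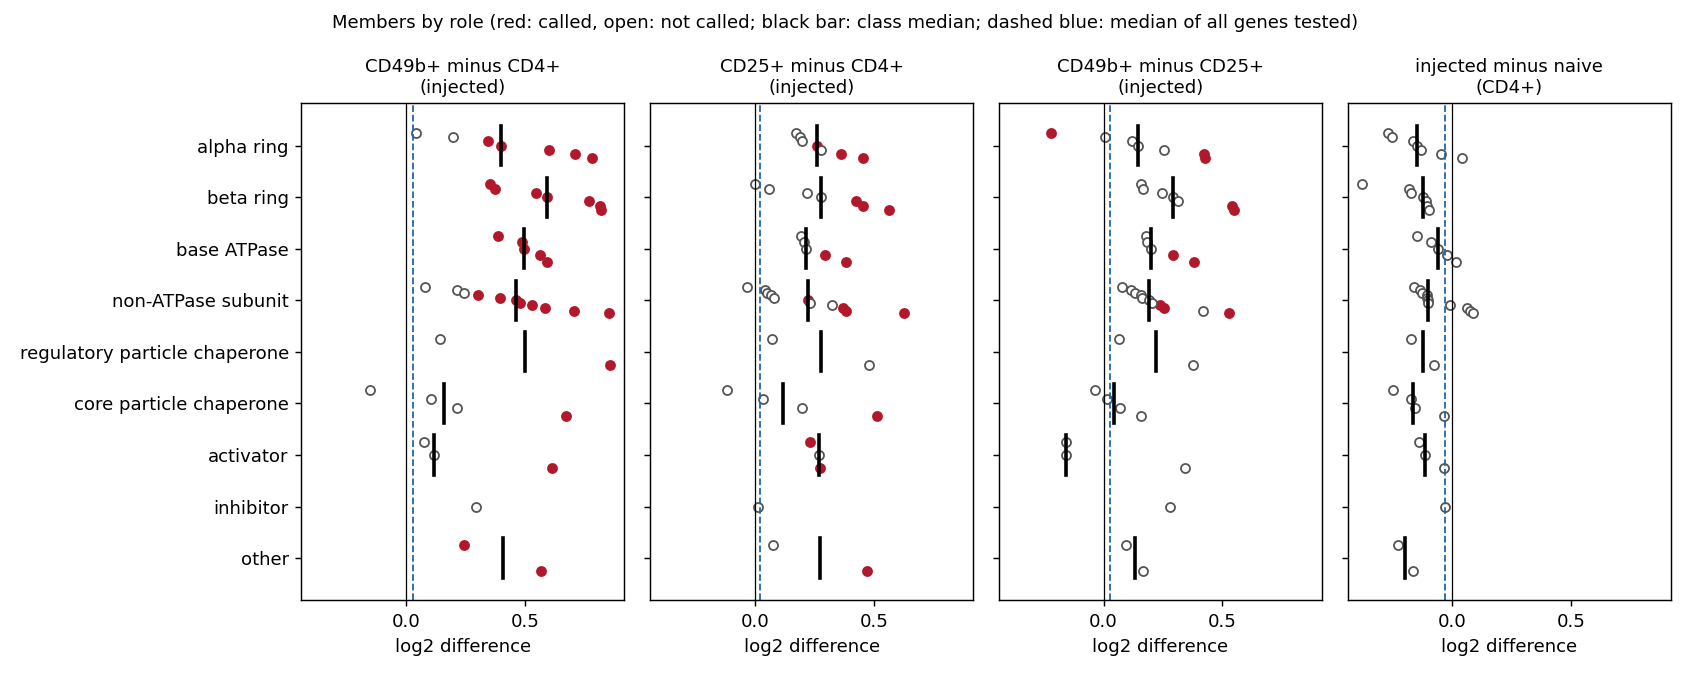
Log2 difference (x axis) of each proteasome gene by role (y axis) in the 4 comparisons, with called genes filled, the class median as a black bar and the median of all genes tested as a dashed line. The beta ring and the base ATPases are filled throughout in CD49b+ against CD4+ cells, and no gene is filled between injected and naive mice.

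CD25+ cells were set against the same CD4+ arrays of injected mice. In CD25+ cells 16 of the 42 proteasome genes rose and 0 fell, where 20.8% of all genes tested rose and 17.8% fell. Their median difference was 0.23, against 0.02 for all genes tested, and 1 of the 42 (Psmd1) was above 1.5-fold, against 10.9% of all. On 23 of the 42 genes the 3 CD25+ arrays all lay above both CD4+ arrays, which held for 31% of all genes tested. Among genes with a mean log2 level of at least 8, 22.9% rose with a median of 0.09. By role 3 of 7 alpha ring genes, 3 of 7 beta ring genes, 2 of 5 ATPases, 4 of 11 non-ATPase subunits, 1 of 6 assembly chaperones, 2 of 3 caps and 1 of 2 other genes rose. The count was smaller without CD4+ replicate 1 (4 of 42), CD4+ replicate 2 (8), CD25+ replicate 2 (8) or CD25+ replicate 3 (8), and was 24 without CD25+ replicate 1. It was 31 after median centring, which moved the median of all genes tested to 0.18 and the share of them called higher to 35.8%. It was 8 after quantile normalization, where 19.9% of all genes tested rose. Without CD25+ replicate 1, 2 or 3 the share of all genes tested that rose was 20.9%, 17.6% or 19.0%. The counts of 8 in 42 were thus close to the background share. Over all genes the calls split into 2297 higher and 1964 lower, and after centring into 3956 and 1077.

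Psmb3 stood at 10.45, 10.68 and 10.80 in CD25+ cells, against 9.97 and 10.19 in CD4+ cells of injected mice, and rose by 0.57 ± 0.11 (SE, adjusted p = 0.00365). Psmc4 stood at 10.42, 10.52 and 10.55, against 10.13 and 10.09, a difference of 0.38 ± 0.07 (adjusted p = 0.00283). Psmg3 stood at 7.71, 7.74 and 7.77, against 7.37 and 7.08, a difference of 0.51 ± 0.09 (adjusted p = 0.00206). These 3 genes and Psmc3ip, at 0.47 ± 0.09 (0.00283), kept their calls under every alternative, of 15 called genes named in this comparison. The groups of each did not overlap. Psmd1 had the greatest difference, 0.63 ± 0.18 (adjusted p = 0.02), and its CD25+ arrays of 9.12, 9.07 and 9.42 lay above CD4+ arrays of 8.56 and 8.59. Psma4 (0.46 ± 0.12), Psmb2 (0.46 ± 0.12), Psmb6 (0.42 ± 0.12), Psmd12 (0.38 ± 0.11), Psmd14 (0.37 ± 0.10), Psma1 (0.36 ± 0.11) and Psmc3 (0.30 ± 0.10) were called at adjusted p of 0.0151 to 0.0369. Each of these 7 and Psmd1 lost its call without CD4+ replicate 1 (adjusted p = 0.0822 to 0.248). Dim probe sets of Psma1 and Psmd11 were lower, at -0.76 ± 0.19 (adjusted p = 0.0125) and -0.47 ± 0.10 (0.0058), and the mean of the Psma1 probe sets gave -0.32 (0.0573).

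The interferon-inducible cap rose in CD25+ cells. Psme2 stood at 11.01, 10.98 and 11.09 in CD25+ cells, against 10.78 and 10.82 in CD4+ cells of injected mice, a difference of 0.23 ± 0.08 (SE, adjusted p = 0.0342). Psme1 stood at 11.15, 11.34 and 11.32, against 10.86 and 11.13. All CD25+ arrays were above both CD4+ arrays for the 2 genes, and Psme1 differed by 0.27 ± 0.10 (adjusted p = 0.0473). The alpha ring subunit Psma3 stood at 11.18, 11.17 and 11.04, against 10.85 and 10.89, and rose by 0.26 ± 0.08 (adjusted p = 0.0299). Psme1, Psme2 and Psma3 were the 3 genes called in CD25+ but not in CD49b+ cells against CD4+ cells. Their calls were lost without CD4+ replicate 1 (adjusted p = 0.366, 0.156 and 0.142) and after quantile normalization (0.173, 0.18 and 0.128). Psme2 and Psma3 also lost them without CD4+ replicate 2 (0.0949 and 0.0857), Psme1 and Psme2 without CD25+ replicate 3 (0.111 and 0.0925), Psme1 and Psma3 without CD25+ replicate 2 (0.111 and 0.0701), and Psma3 without CD25+ replicate 1 (0.0675). Psme3 differed by 0.27 ± 0.14 and was not called (adjusted p = 0.154), though it was after median centring (0.0288) and without CD25+ replicate 1 (0.0287).

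Of the protease subunits Psmb6 stood at 8.63, 8.97 and 8.77 in CD25+ cells, against 8.25 and 8.48 in CD4+ cells of injected mice. Its call was also lost without CD25+ replicate 2 (adjusted p = 0.0535). Psmb5 stood at 9.07, 9.28 and 9.35, against 8.86 and 9.05, without overlap. Its difference of 0.28 ± 0.10 (SE) lay just outside the threshold (adjusted p = 0.0553) and was called after median centring (0.00624) or without CD25+ replicate 1 (0.0172). Psmb7 stood at 6.03, 6.41 and 6.16, against 6.12 and 6.27, and its difference was 0.00 ± 0.16 (adjusted p = 1, 95% interval -0.36 to 0.37). The ubiquitin receptor Psmd4 differed by 0.08 ± 0.10 (adjusted p = 0.534), the chaperone Psmd9 by 0.48 ± 0.20 (0.0802, and 0.0357 without CD25+ replicate 1) and the inhibitor Psmf1 by 0.01 ± 0.15 (0.957). Psmd9 was also called after median centring (0.0234) and with the replicate block (0.00934). Another probe set of Psmd9 was lower, at -0.95 ± 0.24 (adjusted p = 0.0148 over all probe sets), and the mean of its probe sets gave -0.23.

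The sorted subsets were then set against each other, which uses no CD4+ array. In CD49b+ cells 9 of the 42 proteasome genes were higher than in CD25+ cells and 1 was lower, where 17.5% of all genes tested were higher and 12.4% lower. The median difference was 0.18, against 0.03 for all genes tested, and 38 of 42 differences were above 0, as were 55.1% over all genes. On 21 of the 42 genes all CD49b+ arrays lay above all CD25+ arrays (24.3% of all genes tested), and on 3 all lay below (17.3%). Among genes with a mean log2 level of at least 8, 21.8% were higher, close to the share of 9 in 42, and 13% were lower. Their median difference was 0.05, with 57.2% above 0 and 29.6% with all CD49b+ arrays above. The 9 higher genes, Psma1, Psma5, Psmb5, Psmb7, Psmc1, Psmc5, Psmd6, Psmd11 and Psmd13, were all called higher against CD4+ cells too. Their number was 5 without CD25+ replicate 1, which was low for 41 of the 42 genes, where 12.6% of all genes tested were higher. It was 14 without CD25+ replicate 2, where 17.3% were higher. After median centring it was 14, against 20.1% of all genes tested, and after quantile normalization 8, against 17.1%. The counts of 5 and 8 in 42 were close to these shares. Arrays of the 2 subsets with the same replicate number deviated together, as did CD49b+ replicate 1 and CD25+ replicate 2 (correlation 0.135). With the number as a block 18 of the 42 were higher and 1 lower, where 21.3% of all genes tested were higher. The 9 added were Psma4, Psmb1, Psmb2, Psmb3, Psmc3, Psmd8, Psmd9, Psme3 and Psmf1, with differences of 0.20 (Psmc3) to 0.42 (Psmd8) and adjusted p of 0.00667 to 0.046.

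Psmb5 stood at 9.78, 9.84 and 9.71 in CD49b+ cells, against 9.07, 9.28 and 9.35 in CD25+ cells. The difference of 0.54 ± 0.09 (SE, adjusted p = 0.00173) kept its call under every alternative. Psmd13 at 0.53 ± 0.12 (adjusted p = 0.00951), Psma5 at 0.43 ± 0.10 (0.00815) and Psmc1 at 0.38 ± 0.08 (0.00615) kept theirs as well. Psmd13 stood at 8.55, 8.73 and 8.68, against 7.81, 8.24 and 8.33, and replicate 1 was the low CD25+ array. Psmb7, the trypsin-like subunit, stood at 6.54, 6.98 and 6.70, against 6.03, 6.41 and 6.16. It differed by 0.55 ± 0.15 (adjusted p = 0.0183), and the call was lost without CD49b+ replicate 2 (0.0637) or CD25+ replicate 1 (0.0729). Psma1 differed by 0.42 ± 0.10 (adjusted p = 0.00931), a call lost with the mean of its probe sets (0.145). Psmc5, an ATPase, differed by 0.29 ± 0.08 (adjusted p = 0.0215), Psmd11 by 0.25 ± 0.07 (0.0217) and the lid subunit Psmd6 by 0.24 ± 0.08 (0.0451). Each of these 3 lost its call without CD49b+ replicate 3 (0.0526, 0.0748 and 0.112) and without CD25+ replicate 1 (0.0658, 0.0697 and 0.135). Psmc5 and Psmd6 also lost it without CD49b+ replicate 2 (0.0726 and 0.12), Psmd11 and Psmd6 without CD49b+ replicate 1 (0.0615 and 0.0563), and Psmd6 without CD25+ replicate 2 (0.0549).

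Psma3 was the gene lower in CD49b+ cells, at 10.90, 10.99 and 10.85, against 11.18, 11.17 and 11.04 in CD25+ cells. Its difference of -0.22 ± 0.07 (SE, adjusted p = 0.0456) was no longer called after median centring (0.0796) or without CD49b+ replicate 1 (0.0985), CD49b+ replicate 3 (0.14), CD25+ replicate 1 (0.123) or CD25+ replicate 2 (0.107). Psme1 differed by -0.16 ± 0.09 and Psme2 by -0.16 ± 0.07. Their CD49b+ arrays lay below all CD25+ arrays, but neither difference was called (adjusted p = 0.204 and 0.11). Psme3 differed by 0.34 ± 0.13 (0.0664), Psmf1 by 0.28 ± 0.13 (0.147) and Psmd9 by 0.38 ± 0.18 (0.14), none of them called without the block. With the replicate block all 3 were called (0.015, 0.046 and 0.0285), as they were without CD25+ replicate 2 (0.0295, 0.039 and 0.0264). Psme3 was also called after median centring (0.0428), and Psme3 and Psmf1 with the mean of their probe sets (0.013 and 0.0415). Psmd14 differed by 0.16 ± 0.09 (0.24), Psmb6 by 0.17 ± 0.11 (0.288), Psmd4 by 0.13 ± 0.09 (0.292), Psmg3 by 0.16 ± 0.08 (0.192) and Psme3ip1 by 0.17 ± 0.07 (0.107).

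By mean level CD49b+ cells were highest in 36 of the 42 genes, and CD4+ cells of injected mice were lowest in 36. The order CD49b+, CD25+, CD4+ naive and CD4+ injected, from high to low, held in 26. Against CD4+ cells of injected mice 13 genes were called in both subsets: Psma1, Psma4, Psmb2, Psmb3, Psmb6, Psmc3, Psmc4, Psmd1, Psmd11, Psmd12, Psmd14, Psmg3 and Psmc3ip. A call in CD49b+ but not in CD25+ cells was found for 17, of which 7 were also higher in CD49b+ than in CD25+ cells and 10 were not called apart without the block. In neither subset were 9 called, namely Psma2, Psmd3, Psmd4, Psmd5, Psmd7, Psmg1, Psmg2, Psmg4 and Psmf1. These orders and patterns were not counted over all genes tested, so they do not set the proteasome genes apart from others. Across the 42 genes the difference between CD49b+ and CD4+ cells had a Pearson correlation of -0.18 with the mean log2 level, as a description over genes that share the same arrays.

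CD4+ cells of injected mice were set against CD4+ cells of naive mice, which had received no cells. Of the 5 myeloid markers tested 3 were called lower and 0 higher in injected mice, and the part of cell make-up was not tested. No proteasome gene was called in limma, with 0 of 42 higher and 0 lower, where 0.0272% of all genes tested were higher and 1.36% lower. At an unadjusted p under 0.05 there were 3 of 42, all lower in injected mice, against 12.4% of all genes tested, and the alternatives gave 1 to 5. The median difference was -0.11, against -0.03 for all genes tested, and 5 of 42 differences were above 0, against 42.1% over all genes. Without CD4+ injected replicate 1 there were 16 of 42 above 0 (median -0.05), and without CD4+ naive replicate 2 there were 9 (median -0.07). Of the 6 cycling cell markers 0 were called in this comparison, with a median difference of -0.58. On 19 genes both arrays of injected mice lay below both of naive mice, which held for 30% of all genes tested. The 3 genes were Psmg3 at -0.25 ± 0.10 (SE, adjusted p = 0.347), Psma1 at -0.27 ± 0.12 (0.401) and Psmc3ip at -0.23 ± 0.10 (0.392). Psmg3 stood at 7.37 and 7.08 in injected mice, against 7.48 and 7.48 in naive mice. Psmb7 had the greatest difference, -0.38 ± 0.18 (adjusted p = 0.438), with 6.12 and 6.27, against 6.77 and 6.38. With 2 arrays a group the intervals were wide: Psmb5 differed by -0.18 (95% interval -0.43 to 0.07), Psmb6 by -0.11 (-0.40 to 0.19), Psmd13 by -0.16 (-0.50 to 0.18), Psmc1 by -0.15 (-0.37 to 0.07) and Psmd5 by -0.17 (-0.43 to 0.09). The caps differed by -0.14 (Psme1, -0.38 to 0.10), -0.11 (Psme2, -0.30 to 0.07) and -0.04 (Psme3, -0.38 to 0.31). Psmd4 and Psmd14 both differed by -0.10, and Psmf1 by -0.03.

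The 3 protease subunits were read beside the immunoproteasome subunits that replace them: Psmb9 for Psmb6, Psmb10 for Psmb7 and Psmb8 for Psmb5. Psmb8 stood at 11.28, 11.28 and 11.24 in CD49b+ cells and 11.30, 11.31 and 11.39 in CD25+ cells, against 10.92 and 11.03 in CD4+ cells of injected mice. It rose in both subsets, by 0.30 ± 0.07 in CD49b+ (SE, adjusted p = 0.00741) and 0.36 ± 0.07 in CD25+ cells (0.00398). Psmb10 rose in both as well, by 0.40 ± 0.10 in CD49b+ (0.00564) and 0.36 ± 0.10 in CD25+ cells (0.0151). Without CD4+ replicate 1 the calls of Psmb8 in CD49b+ cells (0.0719) and of Psmb10 in CD49b+ (0.0631) and CD25+ cells (0.133) were lost. Quantile normalization ended those of Psmb8 in CD49b+ cells (difference 0.16, 0.0922) and of Psmb10 in CD25+ cells (0.0644), and so did a fit of only the groups compared for Psmb10 in CD25+ cells (0.058). Psmb9 was not called, at 0.23 ± 0.11 in CD49b+ (0.099) and 0.13 ± 0.11 in CD25+ cells (0.382), but in CD49b+ cells it was after median centring (0.00726) or without CD4+ replicate 2 (0.0284). Between the subsets none of the 3 was called, with CD49b+ minus CD25+ differences of -0.06 ± 0.07 for Psmb8 (0.532), 0.05 ± 0.09 for Psmb10 (0.717) and 0.10 ± 0.10 for Psmb9 (0.482), beside 0.54 for Psmb5, 0.55 for Psmb7 and 0.17 for Psmb6. Between injected and naive mice the differences were -0.25 ± 0.08 for Psmb8 (0.206), -0.07 ± 0.10 for Psmb10 (0.883) and -0.27 ± 0.12 for Psmb9 (0.389). Levels of different probe sets are not comparable, so that no ratio of the subunits was formed.

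**Figure D5:**
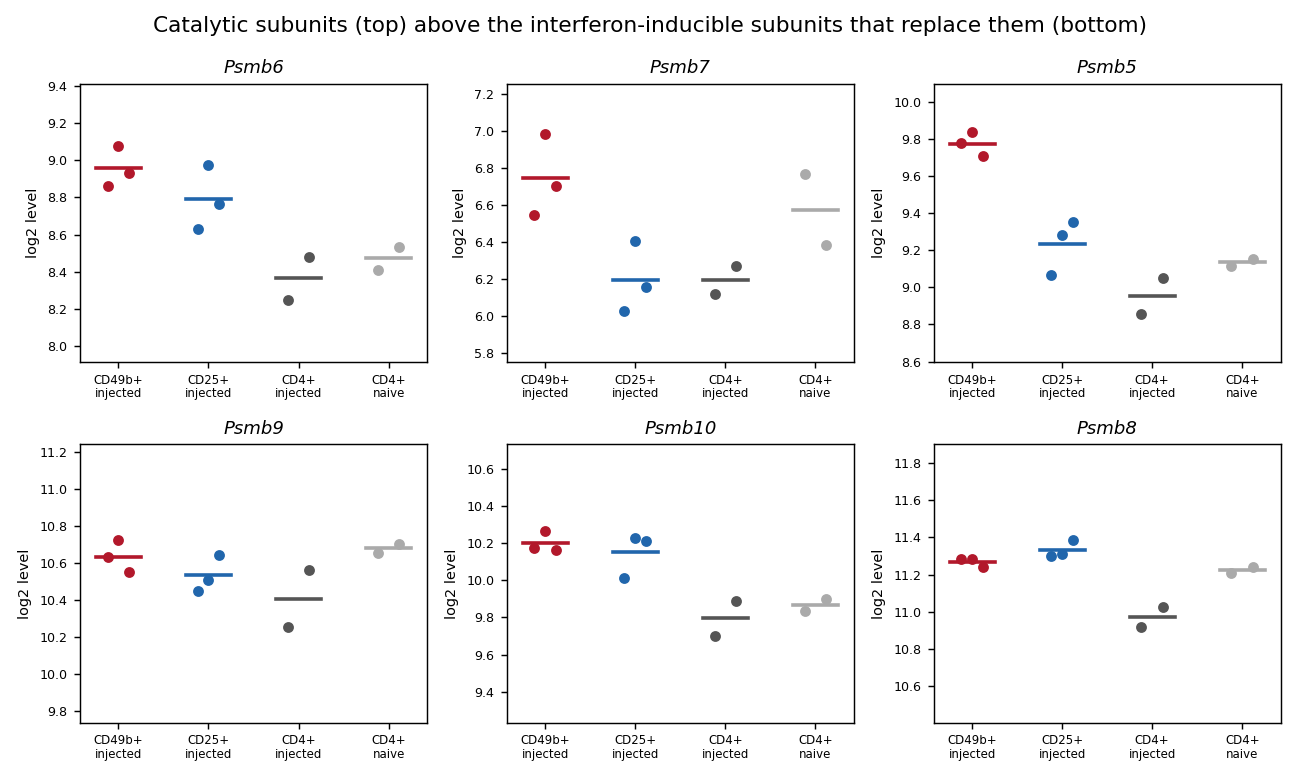
Log2 levels on each array (points) and group means (bars) of the protease subunits Psmb6, Psmb7 and Psmb5 (top) and of the immunoproteasome subunits that replace them, Psmb9, Psmb10 and Psmb8 (bottom), on axes of equal span. Psmb5 and Psmb7 are higher in CD49b+ than in CD25+ cells, while CD49b+ and CD25+ arrays of Psmb9 and Psmb10 overlap.

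A list of 35 other pathway genes, the immunoproteasome included, had 21 with a probe set and 19 tested. Against CD4+ cells of injected mice 29.9% of all genes tested rose and 23.5% fell in CD49b+ cells, and 20.8% rose and 17.8% fell in CD25+ cells. Of the 19 genes 13 rose and 1 fell in CD49b+ cells, with a median of 0.36, while 9 rose and 1 fell in CD25+ cells, with a median of 0.25. Without CD4+ replicate 1 the numbers that rose were 7 in CD49b+ and 3 in CD25+ cells, and 0 fell in CD25+ cells, while without CD4+ replicate 2 there were 2 that fell in CD49b+ cells. Pomp, the chaperone that completes the core particle, stood at 10.80, 10.89 and 10.86 in CD49b+ cells and 10.25, 10.54 and 10.61 in CD25+ cells, against 9.79 and 10.01 in CD4+ cells of injected mice. No group overlapped another, with 0.95 ± 0.12 in CD49b+ (SE, adjusted p = 0.000121) and 0.57 ± 0.12 in CD25+ cells (0.00383). Usp14, a deubiquitinase bound to the regulatory particle, stood at 7.85, 7.74 and 8.03 in CD49b+ cells, against 7.19 and 7.05 in CD4+ cells, and rose by 0.75 ± 0.13 (0.000985). Nploc4, a cofactor of the VCP segregase, rose by 0.65 ± 0.11 in CD49b+ cells (0.000878). Rad23b, which carries ubiquitylated proteins to the proteasome, rose by 0.63 ± 0.13 in CD49b+ (0.00269) and 0.56 ± 0.13 in CD25+ cells (0.00686). Leaving out CD4+ replicate 1 ended the CD25+ call (0.0678). The mean of the Rad23b probe sets went the other way, at -0.40 in CD49b+ (0.00635) and -0.35 in CD25+ cells (0.0174). Ecpas, a proteasome adaptor, rose by 0.68 ± 0.14 in CD25+ cells (0.00376).

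The genes of the list that fell were few, and Ubqln2 was named after its values were seen. Ubqln2, another carrier of ubiquitylated proteins, stood at 9.06, 9.12 and 9.27 in CD49b+ cells, against 9.68 and 9.52 in CD4+ cells of injected mice, and differed by -0.46 ± 0.09 (SE, adjusted p = 0.00221, and 0.0719 with the mean of its probe sets). Nfe2l2, a transcription factor of the oxidative stress response, stood at 7.67, 7.52 and 7.85 in CD25+ cells, against 8.82 and 8.16, and differed by -0.81 ± 0.21 (0.0129). That call was lost without CD4+ replicate 1 (0.127), the higher of those 2 arrays. Nfe2l1, which drives proteasome genes, was higher by 0.26 ± 0.09 in CD49b+ (0.0273) and 0.32 ± 0.09 in CD25+ cells (0.0153), and was named after its values were seen. Both calls of Nfe2l1 were lost without CD4+ replicate 1 (0.133 and 0.0926) or 2 (0.0729 and 0.0531), and that in CD49b+ cells also without CD49b+ replicate 1 (0.0799) or 3 (0.0517). In CD49b+ against CD25+ cells 4 of the 19 were higher and 1 lower, with a median of 0.08. Of all genes tested 17.5% were higher, close to 4 in 19, and 12.4% lower. The number higher was 1 or 2 without CD49b+ replicate 2 (2), CD49b+ replicate 3 (1), CD25+ replicate 1 (1) or CD25+ replicate 3 (2), where 12.6% to 15.6% of all genes tested were higher. Called with all arrays were Usp14 at 0.50 ± 0.12 (0.00933), Pomp at 0.39 ± 0.10 (0.0183), the VCP cofactor Ufd1 at 0.35 ± 0.11 (0.0421), Ngly1, which processes NFE2L1, at 0.30 ± 0.09 (0.0342), and Ubqln2 at -0.36 ± 0.08 (0.00802). The calls of Usp14 and Ubqln2 held without any single array, but that of Ubqln2 was lost with the mean of its probe sets (-0.28, 0.0913). With the replicate block 7 were higher, against 21.3% of all genes tested. The 3 added were Nploc4 at 0.29 (0.0185), Uchl5, a deubiquitinase of the regulatory particle, at 0.35 (0.0194) and Nfe2l2 at 0.38 (0.0496). Pomp lost its call without CD49b+ replicate 2 (0.0562) or 3 (0.0507) or CD25+ replicate 1 (0.0508). Ufd1 lost it without CD49b+ replicate 2 (0.139) or 3 (0.0767) or CD25+ replicate 1 (0.143) or 3 (0.0909), and Ngly1 without CD49b+ replicate 1 (0.081) or 3 (0.113) or CD25+ replicate 1 (0.115) or 3 (0.0731). Between injected and naive mice 0 of 19 were called in limma.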

How the data were processed

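The deposited table holds 45141 probe sets on 10 arrays as log2 values. Per the submitters' processing notes, the authors made these log2 values with GCRMA and the Affymetrix Expression Console 1.2.1. The sources used here give neither settings nor whether all arrays were normalized together, and a shift between groups could partly arise there. Precision is limited by the number of arrays. No column of per-sample values went unused (0).

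Of the probe sets 104 were controls, 28898 had 1 gene symbol, 551 several and 15588 none, and 28689 were matched to the RefSeq gene table. The proteasome genes had 68 single-gene probe sets, and 2 shared with another gene were set aside. A single limma fit of the 4 group means (lmFit and eBayes, limma 3.58.1, R 4.3.3, 6 residual degrees of freedom) gave two-sided p-values, adjusted by Benjamini-Hochberg over the 11037 genes tested within each comparison. The fit was tested on simulated data. Replicate numbers come from the labels, which do not say what they share. The 3 same-number pairs of CD49b+ and CD25+ arrays correlated at 0.158 to 0.641 in their deviations from the group means over all genes tested, all over 0.1, so the blocked values stand beside the results of that comparison. CD49b+ replicate 1 and CD25+ replicate 2 also correlated, at 0.135, and the other pairs of different number at -0.500 to -0.008. Among all groups 6 of 13 same-number and 8 of 24 different-number pairs were over 0.1, so that mark alone does not show pairing. The other comparisons have 2 same-number pairs each and were not taken as paired. Correlations were 0.088 and 0.522 for CD49b+ against CD4+ cells, 0.245 and 0.531 for CD25+ against CD4+ cells, and -0.209 for injected against naive mice. Both pairs of CD25+ and CD4+ arrays were thus over 0.1 too. With the block 16 of the 42 genes were called higher there, as without it, but Psmd9 gained a call (adjusted p = 0.00934) and Psme2 lost its call (0.0555). Motifs and figures were made with Python 3.11.15, pandas 2.3.3 and matplotlib 3.10.9. Over all genes tested the median SE was 0.0990 to 0.121 on the log2 scale.

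The genes, lists and tests were chosen with earlier results of these data known. Named with values were, in each role class, up to 3 genes called higher and up to 3 called lower with the greatest differences, or the greatest difference where none was called. Other called genes were mostly counted or named without values, and their calls were not followed singly through the alternatives. Psmb5, Psmb6, Psmb7, Psmd4, Psmd14, the caps and Psmf1 were named in every comparison, as were genes whose probe sets were called in opposite directions, and up to 4 called pathway genes. Alternatives were the filter on dim genes, quantile normalization, median centring, the eBayes prior, the mean of a gene's probe sets or every probe set, a block for the replicate number, array weights, only the groups compared, and each array left out. The background of genes with a mean level of at least 8, the counts without Psmc3ip and Psme3ip1, and the naming of Il2ra and Itga2 were added after the data were seen.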

Additional observations from a re-analysis of the deposited data

How the results depend on the processing

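Of 80 results on named single proteasome genes, 47 kept their side of the threshold, and where called their direction, under every alternative run. Among the 47 were differences that were not called and stayed so, with all 15 of injected against naive mice. Of the called results 14 of 20 were kept in CD49b+ against CD4+ cells. In CD25+ against CD4+ cells 4 of 15 were kept, and in CD49b+ against CD25+ cells 4 of 10. Called results reversed by averaging the probe sets of a gene were Psma1 (-0.10) and Psmd9 (-0.19) in CD49b+ against CD4+ cells and Psma1 (-0.32) in CD25+ against CD4+ cells, where a dimmer probe set went the other way. The uncalled difference of Psmd9 in CD25+ against CD4+ cells changed sign as well (-0.23). In CD49b+ against CD4+ cells the median difference was 0.33 after quantile normalization, 0.66 after median centring and 0.38 with averaged probe sets. Counted by probe set, 3 of these genes were lower, as were 4 pathway genes. Pathway genes called higher were 8 after quantile normalization, and those called lower 2 with averaged probe sets. In CD25+ against CD4+ cells the count called higher was 8 after quantile normalization, 31 after centring and 6 with only the groups compared, with medians of 0.14 and 0.39 after the 2 normalizations. Of all genes tested 19.9%, 35.8% and 16.7% were higher under these 3 settings. The counts of 8 and 6 of 42 were not above those shares. Counted by probe set, 3 were lower, as were 5 pathway genes. Pathway genes lower were 2 with averaged probe sets, and those higher 5 with only the groups compared. In CD49b+ against CD25+ cells 14 were higher after centring, and 0 were lower after centring, with array weights, with only the groups compared and by probe set. Pathway genes lower were 0 with averaged probe sets, and those higher were 2 with array weights and 2 with only the groups compared. The cause of these changes was not tested. Leaving out each array in turn gave 20 to 30, 4 to 24, 5 to 14 and 0 to 0 genes called higher in the 4 comparisons (CD49b+ and CD25+ against CD4+ cells, CD49b+ against CD25+ cells, injected against naive mice), and 0 to 0, 0 to 0, 0 to 1 and 0 to 0 called lower. Medians were 0.38 to 0.51, 0.18 to 0.29, 0.14 to 0.23 and -0.18 to -0.05. Pathway genes higher were 7 to 12, 3 to 9, 1 to 6 and 0 to 0, and lower 1 to 2, 0 to 1, 1 to 1 and 0 to 0. Where a left-out array left 1 in its group, its spread was taken from the other groups. Arrays of CD49b+ and CD25+ cells were taken as paired by number, those of the other comparisons not. With the replicate block 32 genes were higher in CD49b+ against CD4+ cells, 16 in CD25+ against CD4+ cells, 18 in CD49b+ against CD25+ cells and 0 in injected against naive mice, and pathway genes were 2 lower in CD49b+ against CD4+ cells and 7 higher in CD49b+ against CD25+ cells. Of the named genes of that comparison the block changed no call but those of Psmd9, Psme3 and Psmf1, which it added. Without Psmc3ip and Psme3ip1, 28, 15, 9 and 0 of 40 genes were higher in the 4 comparisons. Signal over background limits Psma8 and Psmb11, which were too dim to test.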
